A study of Mus musculus with 21 samples.

Results

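The naive pluripotency regulators described here are 10 genes: Nanog, Esrrb, Tfcp2l1, Zfp42, Klf2, Klf5, Tbx3, Dppa5a, Lefty1 and Tdgf1. All probes annotated to them in the scanner signal table were taken, which gave 17 of 45281 probes. A detection p-value under 0.01 was required to call a probe above background on an array, and a probe was tested if this held on every array of at least 1 line. Of the 17 probes, 15 were tested, with at least 1 for each gene. The dimmer Esrrb probe was above background on 1 ES array and nowhere else, and the dimmer Klf5 probe was above background on no array. Probes of a gene are numbered by mean brightness, probe 1 being the brightest.

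The arrays measured total RNA from 6 mouse cell lines, 21 arrays in all. MEF (4 arrays) are mouse embryonic fibroblasts with an Oct4 reporter named Oct4-GFP or Oct4-GiP in the labels. Induced neural stem cells with the same fibroblast source and reporter form 3 clones, iNS2 on 3 arrays and iNS3 and iNS5 on 4 arrays each. NS (3 arrays) are control neural stem cells from primary mouse forebrain. ES (3 arrays) are control embryonic stem cells, assigned from their title and state, because their source label repeats that of MEF. Labels of all 6 lines name no drug, dose or age, and the labels used here do not name the factors that converted the fibroblasts. Arrays of the same line are technical replicates according to the series text, so p-values between lines measure technical spread only. Separately derived lines enter as replicates only where the 3 clones are tested together.

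In the mouse, the naive state is that of the preimplantation epiblast and of embryonic stem cells held in culture with LIF. A network of transcription factors that includes Nanog, Esrrb, Tfcp2l1, Klf2, Klf5 and Tbx3 sustains self-renewal beside the core factors Pou5f1 (Oct4) and Sox2. Zfp42 (Rex1) and Dppa5a mark this state, and Tdgf1 (Cripto) and Lefty1 belong to the Nodal signalling pathway. Several of these genes also have roles elsewhere, such as Klf2 in endothelium, Klf5 in epithelium and Tbx3 in limb development.

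Between 14407 and 16021 probes per array were above background, and arrays of a line correlated at 0.991 to 0.996 across genes, which are not independent replicates. Each member probe was read on 22 to 71 beads per array (median 42). The labelled cell types were set against marker genes, each gene by its brightest probe. All 10 ES cell markers were above background on every ES array, and 8 of the 10, Sall4 and Dppa4 among them, were above it on no MEF array. Zfp296 was above it on all MEF arrays. The summed fibroblast marker level was 429 to 485 on the ES arrays and 71532 to 73057 in MEF on the linear scale, and 6 of these 10 genes, Col1a1 and Dcn included, were above background on no ES array. Thy1 and Twist1 were above it on all ES arrays. So were the neural stem cell markers Nes, Sox21 and Olig1, the primitive endoderm markers Gata6 and Dab2, and the trophoblast markers Krt8, Krt18 and Tfap2c. Above background on no ES array were 6 of 9 neural stem cell markers on the array, 3 of 6 primitive endoderm and 3 of 6 trophoblast markers. In NS and each clone, 8 of 9 neural stem cell markers on the array were above background throughout, and Pax6 was above it on none. The arrays lay on 4 slides. ES shared a slide with iNS5 alone, NS shared a slide with 1 array each of MEF, iNS3 and iNS5, and iNS2 shared a slide with iNS3 alone. For ES against MEF or NS, slide and line can therefore be separated only through iNS5.

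Levels below are normalised log2 intensities, and levels of different probes are not comparable. In bulk RNA, fewer expressing cells and less RNA per cell cannot be told apart. Where an array of the dimmer line was not above background, the fold is a lower bound against the dimmest detected probes of that line. Differences between lines were called with limma's treat test against a 2-fold change, at an adjusted p under 0.05 over 15972 probes.

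By the tested probes, the 3 ES arrays lay above all other arrays for 9 of the 10 genes, though Tbx3 was close to MEF. Of 15 tested probes, 11 in 9 genes were called higher in ES than in MEF, 0 were called lower and 4 were not called. Tbx3 is counted among the 9 through probe 2 alone of its 4 probes. ES were higher than MEF at 21.9% of all tested probes. The median difference of the 15 probes was 5.58 on the log2 scale, against 0.10 over all tested probes. Of the 15, 7 had passed the detection filter through ES alone, 4 through ES and MEF, and 4 through ES and at least 1 neural line. A probe that passed through ES alone had to be brighter there, so the counts are descriptions of these genes.

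**Figure D1:**
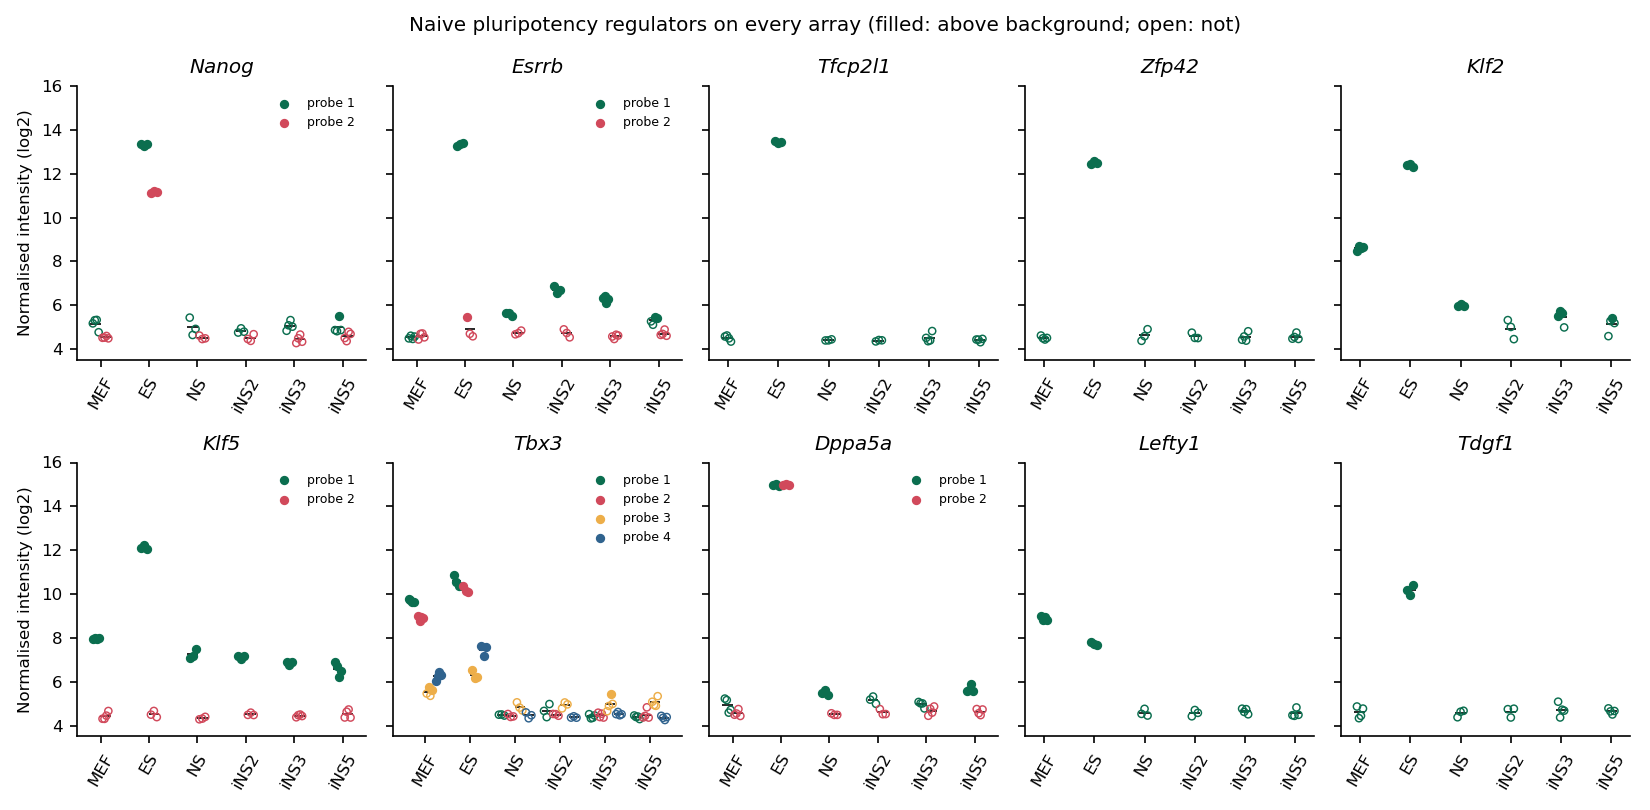
Normalised log2 intensity (vertical axis) of every member probe on each of the 21 arrays, by cell line (horizontal axis). Filled points are above background, open points are not, and short bars are line means. For each tested probe the 3 ES points lie above those of every other line, except for Lefty1, where the 4 MEF arrays are highest.

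Nanog, the homeodomain factor that stabilises self-renewal, had 2 probes. Probe 1 read 13.34, 13.27 and 13.37 on the ES arrays. On the other 18 arrays it lay between 4.64 and 5.52, and it was above background on 1 of them, an iNS5 array. Probe 2 read 11.13, 11.20 and 11.18 in ES and was above background in no other line. Both probes thus separated ES from the other lines with no overlap. ES were at least 217-fold higher than MEF by probe 1 (log2 difference 8.18 ± 0.18 SE) and at least 48.6-fold by probe 2. Both probes had passed the detection filter through ES alone, which favoured this direction.

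Tfcp2l1, a CP2-family factor that acts downstream of LIF and Stat3, read 13.48, 13.40 and 13.44 in ES. It was above background on none of the other arrays, where its line means were 4.38 to 4.52. ES were at least 234-fold higher than MEF. Zfp42, a zinc finger protein long used as a marker of undifferentiated ES cells, read 12.44, 12.57 and 12.49 in ES. It too was above background in no other line, and the fold over MEF was at least 122. For these genes the arrays set only an upper limit outside ES.

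Dppa5a, a KH-domain RNA-binding protein of early embryos and germ cells, had the brightest member probes. In ES, probe 2 read 14.99, 15.01 and 14.96, and probe 1 had a mean of 14.97 ± 0.05 (SD, n = 3). They ranked 7 and 8 of all tested probes by ES level, and 1 and 2 by the difference between ES and MEF. The folds over MEF were at least 685 for probe 2 and at least 676 for probe 1. By that difference Tfcp2l1 ranked 3 and Zfp42 9. Esrrb ranked 4 by probe 1, and Nanog ranked 6 by probe 1 and 26 by probe 2.

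Esrrb, an orphan nuclear receptor and a target of Wnt signalling in ES cells, read 13.26, 13.37 and 13.39 in ES by probe 1. ES were at least 218-fold higher than MEF, in which no array was above background. Unlike Nanog probe 2, Tfcp2l1 and Zfp42, Esrrb was also above background in neural lines, as described further on.

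RefSeq promoter windows (GRCm38.p6, 250 bases before to 50 after a start) were at hand for 6 of the 10 genes, Nanog, Esrrb, Tfcp2l1, Zfp42, Klf2 and Tdgf1, in 8 windows. They were searched on both strands for 7 short patterns: the octamer ATGCAAAT bound by Oct4, the SOX pattern ACAATGG, the ESRRB pattern TCAAGGTCA, the KLF pattern CCACACCC, the TFCP2L1 pattern CCAGNNNNNNCCAG, the STAT pattern TTCCNGGAA and the FOXH1 pattern AATNNACA. A further pattern, TTTGCATNACAATG, which joins part of an octamer to a SOX site, was added after the Nanog window had been read. The windows of Nanog and Zfp42, which held matches, are shown as those of genes above background in ES almost alone. That of Tdgf1, which also held matches, is shown as that of a Nodal co-receptor with the same distribution. Tfcp2l1 was above background in ES alone, but its window held no match and is not shown. Capitals mark the matches.

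Nanog (chr6:122707239-122707538, + strand): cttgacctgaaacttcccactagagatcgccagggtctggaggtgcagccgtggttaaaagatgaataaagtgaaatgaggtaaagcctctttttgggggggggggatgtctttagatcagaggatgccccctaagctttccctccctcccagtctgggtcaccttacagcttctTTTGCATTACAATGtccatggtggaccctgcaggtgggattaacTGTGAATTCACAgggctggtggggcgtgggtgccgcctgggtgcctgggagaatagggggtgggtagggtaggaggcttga
Zfp42 (chr8:43306960-43307259, - strand): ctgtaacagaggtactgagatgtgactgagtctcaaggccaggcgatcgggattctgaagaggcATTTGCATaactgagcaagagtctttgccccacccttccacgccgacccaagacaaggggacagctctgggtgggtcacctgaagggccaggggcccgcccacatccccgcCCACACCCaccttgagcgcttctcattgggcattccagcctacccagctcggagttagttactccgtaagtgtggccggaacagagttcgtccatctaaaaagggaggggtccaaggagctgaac
Tdgf1 (chr9:110946109-110946408, - strand): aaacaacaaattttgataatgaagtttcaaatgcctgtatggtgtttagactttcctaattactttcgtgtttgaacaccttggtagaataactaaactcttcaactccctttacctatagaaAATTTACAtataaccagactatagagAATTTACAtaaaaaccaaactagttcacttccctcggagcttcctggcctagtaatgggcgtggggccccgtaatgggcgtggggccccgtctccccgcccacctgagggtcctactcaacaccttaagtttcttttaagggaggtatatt

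The Nanog window held the joined octamer and SOX pattern 75 bases before the start, the composite element known to bind Oct4 and Sox2 there. Only 2 of 32851 promoter windows of this length (0.00609%) held that pattern, both overlapping windows of Nanog that hold the same site. Because the pattern was added after the Nanog window had been read, its match there is not a test. The Nanog window also held 2 overlapping FOXH1 matches on opposite strands, and 12.2% of all windows held at least 1. Zfp42 had an octamer match 186 bases before its start, a pattern found in 1.74% of windows, and a KLF match 75 bases before it, found in 3.56%. Tdgf1 had 2 FOXH1 matches, 127 and 101 bases before its start. Esrrb had a SOX match 32 bases after a start, a pattern in 3.66% of windows. The ESRRB (0.423% of windows), TFCP2L1 (3.44%) and STAT (1.15%) patterns were in none of the 8 windows, and the windows of Tfcp2l1 and Klf2 held no match. A match is a description of letters in these windows and not a measured binding site.

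Klf2 and Klf5 are Krüppel-like factors that act together with Klf4 in ES cells. Klf2 read 12.38, 12.43 and 12.30 in ES and 8.45, 8.69, 8.63 and 8.67 in MEF. Every MEF array was above background, and every ES array lay above every MEF array. ES were 13.5-fold higher (3.76 ± 0.20, adjusted p 9.86e-11), and 2.99 higher on the log2 scale with slide as a fixed block. Klf5 read 12.09, 12.22 and 12.05 in ES and 7.97 ± 0.02 (SD, n = 4) in MEF, a 17.7-fold difference (4.15 ± 0.12, adjusted p 5.78e-15). Both genes were therefore measured in fibroblasts and higher in ES.

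Tbx3, a T-box repressor that takes part in LIF and PI3K signalling in ES cells, was close in the 2 lines. Probe 1 read 10.88, 10.57 and 10.36 in ES and 9.78, 9.74, 9.61 and 9.64 in MEF. All ES arrays lay above all MEF arrays for each of the 4 probes. The differences were small: 0.91 ± 0.12 for probe 1 (adjusted p 1), 1.29 ± 0.10 for probe 2 (adjusted p 0.0131), 0.76 ± 0.16 for probe 3 (adjusted p 1) and 1.19 ± 0.11 for probe 4 (adjusted p 0.0999). Probe 2 was thus the only one called, at 2.44-fold, and its call was lost without ES replicate 1 (adjusted p 0.0906) and with slide as a block (0.593). Probe 4 was called without MEF replicate 3 (0.0378) or ES replicate 2 (0.00357). Against no change, all 4 differences passed by eBayes, with adjusted p-values of 5.31e-07, 3.64e-10, 0.000152 and 2.34e-09 for probes 1 to 4. By that test, 13528 of the 15972 tested probes were called between ES and MEF, in either direction. A pass therefore sets the Tbx3 probes little apart from other probes.

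Lefty1, a secreted inhibitor of Nodal, ran the other way. It read 8.90 ± 0.09 (SD, n = 4) in MEF, with a lowest array at 8.82, and 7.80, 7.71 and 7.67 in ES, so every MEF array lay above every ES array. MEF were 2.25-fold higher (log2 difference of ES from MEF -1.17 ± 0.10). This missed the test against a 2-fold change (adjusted p 0.117) and passed the test against no change (adjusted p 1.49e-09). The latter was passed by 13528 of the 15972 tested probes between ES and MEF, in either direction. The difference was negative under every alternative run, from -1.33 to -0.85. Tdgf1, the EGF-CFC co-receptor through which Nodal signals, read 10.20, 9.94 and 10.40 in ES and was above background in no other line. ES were at least 24.5-fold higher than MEF for Tdgf1.

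The other genes of the Nodal pathway were taken as a list of 15, of which 11 had a tested probe. In ES, 7 were called higher than in MEF, 1 lower and 3 not, with a median difference of 1.62 against 0.06 over all genes. Of all tested probes, 21.9% were higher in ES than in MEF and 21.2% lower. Nodal itself, the ligand, was at 10.65 in ES and 4.60 in MEF, at least 33.9-fold. Lefty2, the paralogue of Lefty1, was at 8.08 in ES and 4.70 in MEF, and Foxh1, the nuclear partner of the SMADs, at 6.48 and 4.74. Nodal, Lefty2 and Foxh1 had passed the detection filter through ES alone, which favoured this direction. Of the receptors, Acvr2b was 15.8-fold and Acvr1b 3.07-fold higher in ES. Furin, a protease that cleaves the Nodal precursor, was called lower in ES (9.47 against 12.24), and Smad2, Smad3 and Gdf1 were not called. Lefty1 was thus at 8.90 in MEF beside Nodal, Lefty2, Foxh1 and Tdgf1 at or near background there.

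**Figure D2:**
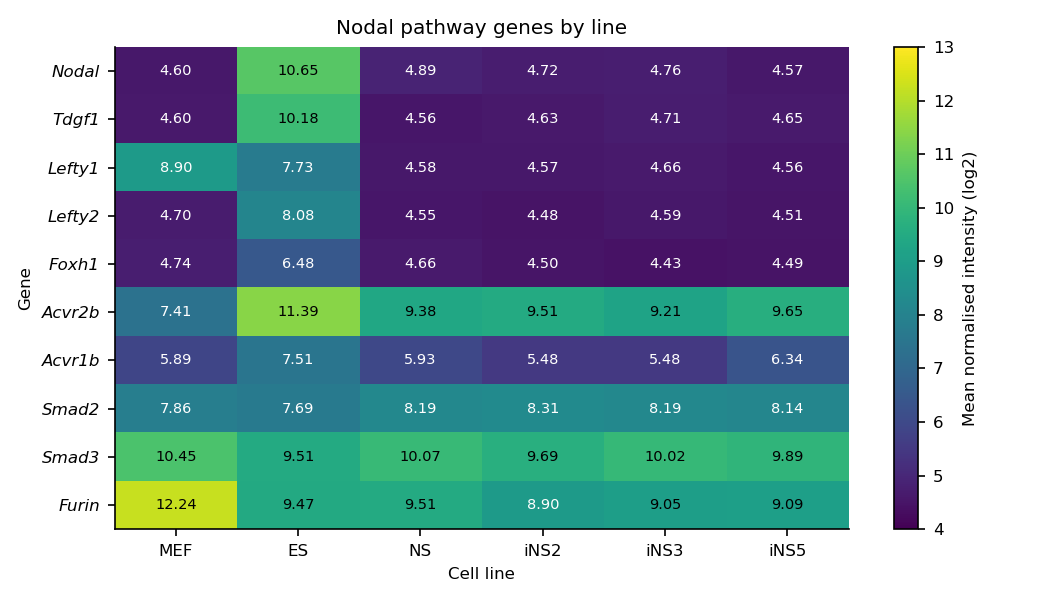
Mean normalised log2 intensity (colour and printed value) of Nodal pathway genes (rows) in the 6 lines (columns), each gene by its brightest tested probe. Values can be compared along a row and not between rows. Lefty1 is highest in MEF (8.90), while Nodal (10.65), Tdgf1 (10.18) and Lefty2 (8.08) are highest in ES.

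Against NS, all 15 member probes were called higher in ES, where 13.7% of all tested probes were. Of the 15, 7 had passed the detection filter through ES alone and 4 through ES and MEF but no neural line. For these probes the filter favoured this direction, against NS, each clone and the clones as a group. Against each clone 14 of 15 were called higher, beside 13.8% of all tested probes for iNS2, 15.5% for iNS3 and 14.6% for iNS5. The probe not called was Tbx3 probe 3, whose differences from the clones were 1.24 to 1.37 and which was above background on 1 of the 11 clone arrays. Its call against NS, 1.45 (at least 1.845-fold), was lost without NS replicate 2 or 3 or ES replicate 1 and with slide as a block. On slide 3, which ES shared with 3 iNS5 arrays, the differences for Klf2, Klf5 and Lefty1 were 7.07, 5.64 and 3.14, beside 7.25, 5.53 and 3.17 over all arrays. With the 3 clones as a group of separately derived lines, all 15 probes were lower than in ES by limma's eBayes test on line means, with adjusted p-values from 0.000644 to 0.00882. Of all tested probes, 20.1% were lower in the clones than in ES by that test. Without iNS2, Tbx3 probe 3 lost this call (adjusted p 0.0696).

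**Figure D3:**
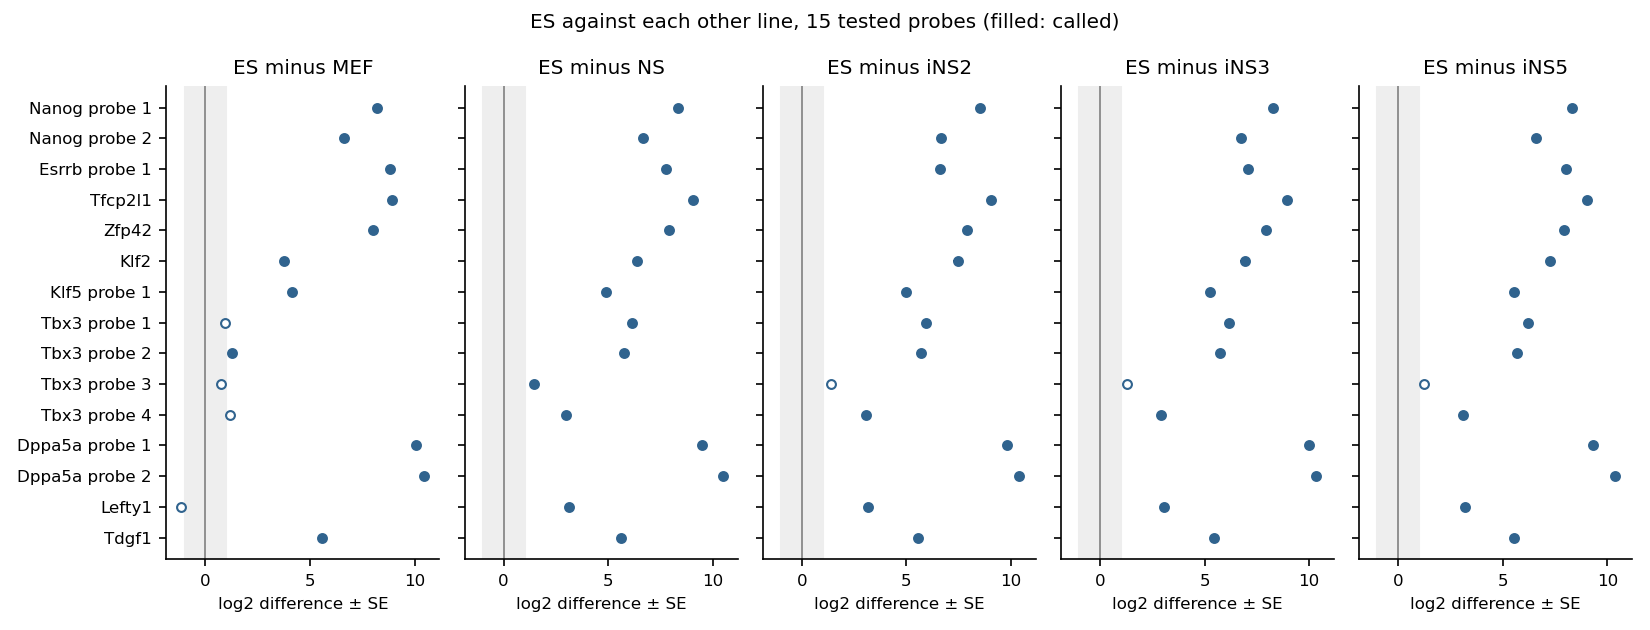
Log2 difference ± SE (horizontal axis) of ES from each other line for the 15 tested member probes (vertical axis), with called differences filled and the 2-fold zone shaded. Klf2, Klf5, Tbx3 and Lefty1 differ less from MEF than from any neural line, and Lefty1 alone lies left of 0, at -1.17 against MEF.

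Of the 4 members above background on every MEF array, 3 were called lower in each neural line. Klf2, Tbx3 by probes 1, 2 and 4, and Lefty1 were called lower than MEF in NS, iNS2, iNS3 and iNS5, 5 probes in each. Those Tbx3 probes and Lefty1 had passed the detection filter through ES and MEF but no neural line, which favoured this direction. In iNS5, Klf5 was also called. Lower than MEF were 15.8% of all tested probes in NS, 17.1% in iNS2, 16.5% in iNS3 and 17.8% in iNS5, and these comparisons share the MEF arrays. The 5 probes belong to 3 genes. As a group of separately derived lines, the clones were called lower than MEF at 6 probes, those 5 and Klf5 probe 1, beside 20.9% of all tested probes.

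Tbx3 by probe 1 was at 9.69 ± 0.08 (SD, n = 4) in MEF, 4.48 in NS and 4.39 to 4.68 in the clones. It was above background on no array of NS or the clones. The folds were at least 19.3 for NS, 19.5 for iNS2, 19.1 for iNS3 and 20.5 for iNS5. Lefty1 was at 8.90 ± 0.09 in MEF and had neural line means of 4.56 to 4.66, above background on no neural array. The fold was at least 11.1 in NS, 11.2 in iNS2 and 11.8 in iNS5. By these probes both genes were thus not above background on any neural array, and Tbx3 probe 3 was above it on 1 iNS3 array. On slide 4, which carried MEF replicate 4 with NS, iNS3 and iNS5 arrays, the Tbx3 differences were -5.16, -5.18 and -5.18 and the Lefty1 differences -4.25, -4.32 and -4.36.

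Klf2 was lower in every neural line than in MEF, and of these lines only NS was above background on all arrays. It read 5.95, 6.07 and 5.94 in NS, all above background, and was 6.17-fold lower than in MEF (adjusted p 3.81e-07). It read 5.50, 5.74, 5.62 and 4.98 in iNS3, with 3 arrays above background, and 4.59, 5.28, 5.42 and 5.18 in iNS5, with 1. In iNS2, at 5.32, 5.01 and 4.45, no array was above background and the fold was at least 9.20. NS was the brightest neural line for Klf2. Its difference from each clone, 1.06 for iNS2, 0.52 for iNS3 and 0.87 for iNS5, was not called against 2-fold, and passed against no change (adjusted p 0.000699, 0.0361 and 0.00135). Of the 15972 tested probes, 4972, 7504 and 7269 passed against no change between NS and these clones, in either direction. As a group, the clones were 0.82 ± 0.27 below NS (adjusted p 0.92).

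Klf5 stayed above background on all 21 arrays. Its line means ran from 7.97 ± 0.02 (SD, n = 4) in MEF through 7.24 ± 0.22 in NS, 7.12 ± 0.09 in iNS2 and 6.86 ± 0.08 in iNS3 to 6.59 ± 0.30 in iNS5. The arrays of NS and iNS2 overlapped, as did those of iNS3 and iNS5. The iNS5 arrays read 6.92, 6.73, 6.23 and 6.48, and the highest of these lay on slide 4. The difference from MEF was called for iNS5, at -1.38 ± 0.11 (adjusted p 0.00513), and not for iNS3 (-1.11, adjusted p 0.447), iNS2 (-0.85) or NS (-0.73). On slide 4 alone, the iNS5 difference was -1.07 (adjusted p 0.903). As a group, the clones were 2.17-fold below MEF (-1.12 ± 0.27, adjusted p 0.0349), and the call was lost without iNS2 (0.0762) or iNS3 (0.0517).

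**Figure D4:**
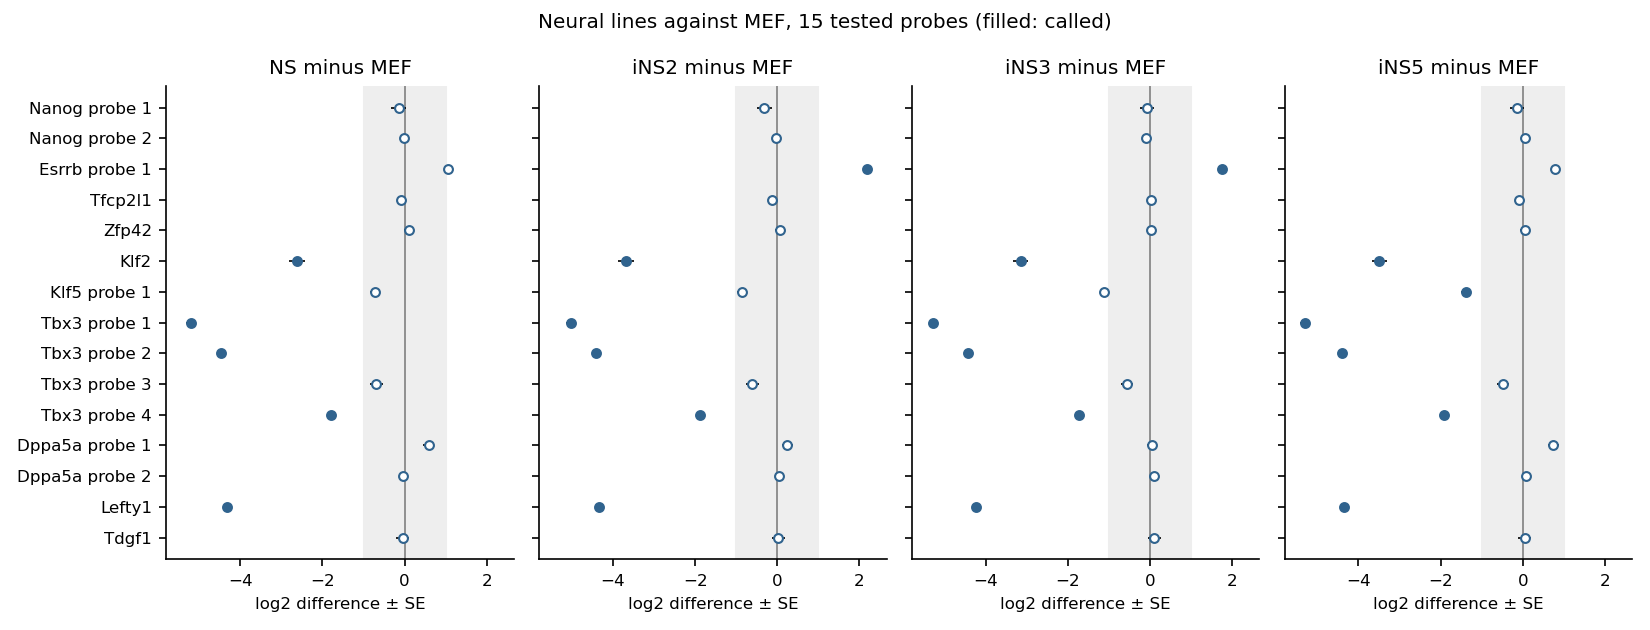
Log2 difference ± SE (horizontal axis) of NS and of each clone from MEF for the 15 tested member probes (vertical axis), with called differences filled and the 2-fold zone shaded. Klf2, Tbx3 probes 1, 2 and 4 and Lefty1 lie left of the zone in all 4 panels, and Esrrb lies right of it, filled, in iNS2 (2.18) and iNS3 (1.76).

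Esrrb was the only member called higher in a neural line than in MEF. Probe 1 read 4.48, 4.61, 4.46 and 4.57 in MEF, 6.87, 6.56 and 6.71 in iNS2, and 6.31, 6.44, 6.10 and 6.30 in iNS3. NS read 5.62, 5.66 and 5.51, and iNS5 read 5.26, 5.11, 5.46 and 5.41. All arrays of NS, iNS2 and iNS3 and 2 of the 4 iNS5 arrays were above background, and no MEF array was. Apart from ES, the lines thus stood in the order iNS2, iNS3, NS, iNS5 and MEF, with no overlap between neighbouring lines.

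The Esrrb difference from MEF was 2.18 ± 0.09 in iNS2 (at least 2.21-fold, adjusted p 5.44e-10) and 1.76 ± 0.09 in iNS3 (at least 1.65-fold, adjusted p 1.39e-07). Higher than MEF were 17.3% of all tested probes in iNS2 and 16.6% in iNS3. In NS the difference was 1.07 (adjusted p 0.613) and in iNS5 0.78 (adjusted p 1), and both passed against no change (2.37e-09 and 6.88e-08). Between MEF and these lines, 12763 (NS) and 13377 (iNS5) of the 15972 tested probes passed against no change, in either direction. On slide 4 the iNS3 difference was 1.73 (adjusted p 0.00953). Without background correction the iNS2 and iNS3 differences shrank to 0.73 and 0.55 and were not called. As a group the clones did not differ from MEF at the threshold (1.57 ± 0.60, adjusted p 0.101). Esrrb in ES was still 98.7-fold above iNS2 and 133-fold above iNS3.

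Between clones, Esrrb was the only member called. It was 1.40 ± 0.09 higher in iNS2 than in iNS5 (at least 2.54-fold, adjusted p 0.0137), where 0.482% of all tested probes were called higher. This call was lost without iNS2 replicate 1 (adjusted p 0.168), iNS2 replicate 3 (0.0537) or iNS5 replicate 2 (0.0713). The lines share no slide, and with slide as a fixed block, estimated through the other lines, the difference was 1.47 and was not called (adjusted p 1). Between iNS2 and iNS3 (0.939% of all tested probes called, in either direction) and between iNS3 and iNS5 (4.3%), 0 member probes were called. At an unadjusted p under 0.05 there were also 0, and 8 member calls were made over the 3 pairs by eBayes against no change.

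Against NS, 0 of 15 member probes were called in any clone, where 1.9% of all tested probes were called in iNS2, 1.96% in iNS3 and 2.79% in iNS5. At an unadjusted p under 0.05 there were 0 as well, and eBayes against no change called 9 over the 3 clones. The largest differences from NS were those of Esrrb in iNS2, 1.11 ± 0.10 (2.17-fold), and of Klf2 in iNS2, -1.06 ± 0.21 (at least 1.49-fold lower). As a group, the clones differed from NS at 0 member probes (1 at an unadjusted p under 0.05), and 0.0563% of all tested probes were called. A miss of the threshold does not show that the levels were alike.

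The 2 probes of Dppa5a disagreed outside ES. Probe 1 was above background on all NS arrays (5.49, 5.63 and 5.41) and all iNS5 arrays (5.58, 5.62, 5.91 and 5.56), and on no MEF, iNS2 or iNS3 array. Probe 2 was above background on none of these, with line means of 4.51 to 4.67. The low signal of probe 1 is therefore not seen by the other probe, and the difference of iNS5 from MEF by probe 1, 0.75, was not called. Both probes of Nanog, and those of Tfcp2l1, Zfp42, Tbx3, Lefty1 and Tdgf1, were above background on no array of iNS2 or NS. In iNS3 and iNS5, the exceptions were Tbx3 probe 3 on 1 iNS3 array and Nanog probe 1 on 1 iNS5 array.

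Other genes of the same network were taken as lists. Of 20 core and partner pluripotency genes, 18 had a tested probe, and all 18 were called higher in ES than in MEF (median 5.59, against 0.06 over all genes). Of all tested probes, 21.9% were higher in ES than in MEF. All of the 18 but Sox2, Zfp296, Dnmt3l and Tet1 had passed the detection filter through ES alone, which favoured this direction. Pou5f1 was at least 187-fold, Sall4 at least 113-fold and Dppa4 at least 99.9-fold higher. In the clones as a group, 2 of the 18 were called higher than in MEF, 2 lower and 14 not, beside 22.3% of all tested probes higher and 20.9% lower. Sox2, which neural stem cells also use, was at 10.09 in iNS2 and 4.60 in MEF, and at least 21.7-fold higher in ES than in MEF.

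Of 12 tested genes among the other naive state genes and the LIF pathway, 8 were called higher in ES than in MEF, 1 lower and 3 not. The median difference was 2.36, against 0.06 over all genes. Of all tested probes, 21.9% were higher in ES than in MEF and 21.2% lower. Tcl1 was at least 25.7-fold and Nr5a2, a nuclear receptor, at least 19.7-fold higher, and Prdm14 was at 7.96 in ES and 4.34 in MEF. Tcl1, Prdm14 and Pecam1, also in this list, had passed the detection filter through ES alone, which favoured this direction. Il6st, the shared receptor subunit of LIF, was lower in ES (7.70 against 10.17), Lifr was higher (6.47 against 5.10), and Stat3 (-1.16), Socs3 (1.07) and Klf4 (0.79) were not called. Klf4, the partner of Klf2 and Klf5, was thus at 10.10 in ES and 9.31 in MEF, and it was lower in iNS2 (5.66). Of formative and primed state genes, 4 were tested: Dnmt3b and Otx2 were higher in ES, and Pou3f1 and Sox3 were not called. Their median difference was 2.58.

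Paralogues of the members were taken as lists too, beside 21.9% of all tested probes higher in ES than in MEF and 21.2% lower. Of 9 tested KLF genes, Klf9 was called higher in ES than in MEF, Klf6 and Klf7 lower and 6 not, with a median of -0.01. Of 5 tested T-box genes, Tbx15 and Tbx1 were called lower and 3 were not called, with a median of -0.39. Among 5 tested genes listed for other members, Lefty2, which had passed the detection filter through ES alone, was called higher, and Esrra, Tfcp2 and Ubp1 were not. Zfp41 was called higher too, but it was listed by its name and is not taken here as a paralogue of Zfp42.

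For each member, the 2 genes with the most like pattern over the 6 line means were found among 10448 others, as the smallest root mean square log2 difference after centring each gene on its own mean. As a description over 6 lines that share their normalisation, Zfp42 was closest to Pou5f1 (0.09) and Tfap2c (0.10), and Nanog to Ooep (0.14) and Tfap2c (0.18). Tfcp2l1 was closest to Nanog (0.26) and Ooep (0.28), and Dppa5a to Tfcp2l1 (0.41) and Nanog (0.61). Tdgf1 was closest to Crybg2 (0.04) and Tcl1 (0.06). Esrrb was farther from its nearest genes, Sall4 (0.60) and Pou5f1 (0.65), with Dppa5a next. For genes above background in ES almost alone, the other line means lie near background, so likeness rests mainly on the ES level.

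The members present in fibroblasts were closest to other genes. Lefty1 was closest to P2rx5 (0.12), which was at 8.78 in MEF, 7.50 in ES and 4.63 to 4.68 in the neural lines, and to Steap1 (0.16). Tbx3 was closest to Stxbp2 and Sdr39u1 (both 0.19), Klf2 to Llgl2 (0.38) and Xlr4a (0.40), and Klf5 to Urah (0.18) and Tulp2 (0.31).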

How the data were processed

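Expression was measured on Illumina MouseWG-6 V2 bead arrays. The deposited scanner table holds mean bead intensity on a linear scale, background included, and per the file headers a detection p-value, bead number and bead standard error for each probe and array. A table of scaled intensity was also deposited by the authors, in which every column followed the scanner signal as a straight line (largest residual 0.1148), with a mean of 379.2 and medians of 6.7 to 8.3. Its background settings are unknown, and no centring across arrays was found. The submitters' processing notes name GenomeStudio, without a version.

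Gene names came from the platform annotation given with the table: 34885 probes carried 1 symbol, 18 several and 10378 none, and 34807 were matched by gene identifier. The neqc function of limma 3.58.1 corrected background and normalised by quantiles (R 4.3.3, controls inferred from detection p-values, offset 16), giving log2 values. Probes with 1 symbol and a detection p under 0.01 on every array of at least 1 line were tested (15972 probes, 10449 genes). All 21 arrays were fitted as 6 groups with 15 residual degrees of freedom and tested two-sided with treat against a 2-fold change, and with eBayes against no change where stated. The clones as a group were tested with eBayes on line means with 2 residual degrees of freedom, the line on the other side being assumed to vary like the clones. All adjusted p-values are Benjamini-Hochberg values over the tested probes. The fits were tested on simulated data. The median scanner signal per array was 127 to 168.5, and the number of arrays limits the precision.

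All members and every probe of theirs are named, with the 2 genes most like each in pattern, and from other lists the genes of a role and those with the largest called changes. The members and lists were chosen with earlier results of these data known, so no count is independent evidence. The alternatives were no background correction, median scaling, the authors' table, an offset of 50, other detection filters, 1 probe per gene, slide as a block or alone, the other test, and each array or clone left out. Python 3.11.15 with matplotlib 3.10.9 drew the figures.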

Additional observations from a re-analysis of the deposited data

Results flagged for a closer look

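In lines with 4 arrays, the highest or lowest array was compared with the other 3 for each member probe, 51 groups in all, and 4 groups had an array farther from the others than Dixon's critical value, where chance gives about 1 in 20. All 4 were replicate 3 of iNS5, on slide 3. Nanog probe 1 read 5.52 there against 4.81 to 4.87 on the other iNS5 arrays, and it was the array on which that probe passed the detection limit. Tbx3 probe 2 read 4.83 against 4.36 to 4.44, Dppa5a probe 1 read 5.91 against 5.56 to 5.62, and Lefty1 read 4.82 against 4.44 to 4.49. Tbx3 probe 2 and Lefty1 were not above background on that array. The other slide 3 arrays of iNS5 did not share these values.

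The Esrrb difference from MEF was not the same in all clones: iNS2 exceeded iNS5 by 1.40 on the log2 scale (limma's treat test, adjusted p 0.0137). These clones share no slide. With slide as a fixed block, estimated through the other lines, the difference was 1.47 and was not called (adjusted p 1).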

How the results depend on the processing

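Over the alternatives run, 3987 values of single member probes were recomputed, being all calls and all uncalled differences of at least 0.5. Of these 3903 kept direction and call, 42 lost the call, 42 gained a call and 0 reversed. The number of members called between pairs of clones, 1, became 0 without background correction, with median scaling, with an offset of 50 and with slide as a fixed block, 2 in the authors' table and 8 with eBayes against no change. The number called in clones against NS, 0, became 1 in the authors' table and 9 with eBayes. Of all tested probes, eBayes called 5826 to 9449 per pair of clones and 4972 to 7504 per clone against NS. The number called in NS against MEF, 5, became 3 with 1 probe per gene, which leaves fewer probes, and 9 with eBayes. With 1 array left out, counts of members called ran from 10 to 12 for ES against MEF, 14 to 15 against NS, iNS2 and iNS3, 14 against iNS5, 5 for NS against MEF, 6 for each clone against MEF, 0 to 1 for pairs of clones and 0 for clones against NS. With 1 clone left out, the group gave 5 to 7 against MEF, 14 to 15 against ES and 0 against NS. The lost calls were those of Esrrb in iNS2 and iNS3, of Klf5 in iNS5 and the clones, and of Tbx3 probes 2, 3 and 4. The gained calls other than by eBayes were those of Tbx3 probes 3 and 4 and, in the authors' table, Lefty1 lower in ES than in MEF (-1.33, adjusted p 6.42e-06) and Esrrb in iNS2 against NS (1.55) and in iNS3 against iNS5 (1.40).

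Over all tested probes, the calls for ES against MEF, 6872, became 4044 without background correction and 13528 with eBayes, and for NS against MEF, 5145, became 2944 and 12763. Calls for iNS3 against iNS5, 686, became 226 without background correction, 428 with an offset of 50, 404 with 1 probe per gene, 323 with slide as a fixed block, 157 on slide 4 and 9449 with eBayes. Calls for the clones as a group against NS, 9, became 3 without background correction, 18 in the authors' table and 0 without any of the 3 clones, and against MEF, 6913, became 2558 with treat and 3191 without iNS2. The cause of these changes was not tested. The median of all tested probes between lines lay between -0.01 and 0.13 in the main scaling and between -0.15 and 0.39 with median scaling. Probes near background give only a bound, and the summed clone comparisons could not be run on 1 slide. No paired analysis was possible because the labels number no replicates.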
